A study of Mus musculus with 14 samples.

Results

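The genes described here are 46 mouse genes of the endoplasmic reticulum (ER) machinery that brings new secretory and membrane proteins into the ER, cuts, glycosylates and folds them there, and ships them towards the Golgi. They come from a list of gene symbols. All 46 were matched to an Ensembl ID among the 36536 genes of each count table, and all 46 passed the filter on low counts. They were ordered by role into the signal recognition particle (SRP, 4 genes), the translocon (5), the translocon-associated protein complex TRAP (4), the signal peptidase (5), the oligosaccharyltransferase (6), ER chaperones and their partners (9), the COPII coat (5), p24 proteins (3), cargo receptors (2) and KDEL receptors (3).

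RNA was sequenced from 14 libraries in 6 groups, 3 of colon and 3 of ileum (the distal small intestine), to find genes of the adult intestine that depend on the transcription factor ATOH1, which secretory cells of the intestinal epithelium need. The GFP libraries (3 per tissue) hold live GFP-positive cells, sorted by flow cytometry from crypts of mice in which both Atoh1 alleles encode a functional ATOH1-GFP fusion, and no age is given for these mice. The KO libraries (2 per tissue) hold whole crypts of mice aged 6 to 8 weeks with both Atoh1 alleles floxed and the Villin-CreERT2 transgene, a Cre under a promoter of the whole intestinal epithelium. The WT libraries (2 per tissue) hold whole crypts of littermates of the same age with 1 floxed and 1 intact allele and the same transgene, so KO and WT mice share the Cre. Whether the libraries of a group come from different mice is not stated, so every p-value below rests on library-to-library spread that may be technical. Sorted cells and whole crypts also differ in mouse line and handling, and these cannot be told apart from cell type in any comparison of GFP with WT. In bulk RNA, fewer cells of a type and less RNA per cell cannot be told apart either.

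A secreted protein is recognised by SRP as it leaves the ribosome, is passed through the Sec61 channel into the ER, loses its signal peptide there and receives its glycans from the oligosaccharyltransferase. Chaperones of the ER lumen then help it to fold, COPII vesicles carry it out with the help of p24 proteins and cargo receptors, and KDEL receptors bring escaped chaperones back. Goblet and Paneth cells, which make mucus and antimicrobial proteins, are known for an extensive ER, and many genes of this machinery are targets of the unfolded protein response.

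Each crypt library held 8848660 to 10870416 gene counts, and each sorted library 7478418 to 12991891. Mitochondrial ribosomal RNA took 30.02 to 44.88% of the gene counts of sorted cells and 0.14 to 0.22% of those of crypts. Levels below are in CPM, the gene's share of the library's counts after scaling by the TMM method over all 14 libraries. The sorted ileum library GFP 1 stood apart from GFP 2 and 3: 52.29% of its uniquely placed reads lay outside genes, against 27.78 and 31.25%. Ileum WT 1 and 2 were the least alike replicates, with a chi-square per gene of 84.8, where the others ran from 10.3 to 69.5, the highest being ileum GFP 1 and 2. Atoh1 itself had 295, 231 and 264 CPM in colon GFP cells, 5.21 and 5.91 CPM in colon KO crypts and 62.7 and 44.8 CPM in colon WT crypts. In ileum it had 196, 323 and 296 CPM in GFP cells, 1.02 and 0.527 CPM in KO crypts and 41.03 and 39.6 CPM in WT crypts, so the order of the groups follows their labels in both tissues. The epithelial markers Epcam and Cdh1 reached at least 857 CPM and 866 CPM in every library, but the 10 markers of that list summed to 3903 to 6837 CPM in GFP libraries, against 8993 to 12910 CPM in the crypt libraries, and 6 of them fell in GFP cells of each tissue.

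Summed over the 46 genes, the TMM-scaled level was highest in sorted cells and lowest in KO crypts in each tissue. It was 12600, 11890 and 10480 CPM in colon GFP cells, 5985 and 5133 CPM in colon KO crypts and 6951 and 7204 CPM in colon WT crypts. In ileum it was 9999, 15870 and 16950 CPM in GFP cells, 8600 and 7190 CPM in KO crypts and 9154 and 9424 CPM in WT crypts. No library of a group overlapped with those of the next in either tissue, and ileum GFP 1 was the library closest to the crypts. The place of sorted cells in that order depends on the scaling, whose TMM factors were 0.638 to 0.786 in GFP libraries and 1.25 to 1.35 in crypt libraries. As a plain share of all gene counts, the 46 genes took 0.911, 0.854 and 0.667% in colon GFP cells, 0.789 and 0.678% in KO crypts and 0.906 and 0.968% in WT crypts. In ileum that share was 0.784, 1.091 and 1.167% in GFP cells, 1.084 and 0.956% in KO crypts and 1.151 and 1.174% in WT crypts, so sorted cells were not highest by this measure. With mitochondrial ribosomal RNA left out of the total, the share was 1.211 to 1.473% in colon GFP cells, against 0.908 and 0.97% in WT crypts, and 1.223 to 1.72% in ileum GFP cells, against 1.154 and 1.176% in WT crypts, without overlap. In TMM-scaled CPM, the median member of each library, on the log2 scale relative to the mean of the WT crypts of its tissue, was 0.91, 0.85 and 0.55 in colon GFP cells and -0.25 and -0.44 in colon KO crypts. In ileum it was 0.19, 0.92 and 0.99 in GFP cells and -0.17 and -0.42 in KO crypts. The WT libraries lay within 0.07 of 0. Every role but the COPII coat, the cargo receptors, the chaperones and the oligosaccharyltransferase kept its median above 0 in all 6 sorted libraries, and in those 4 roles it was ileum GFP 1 that lay below 0.

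**Figure D1:**
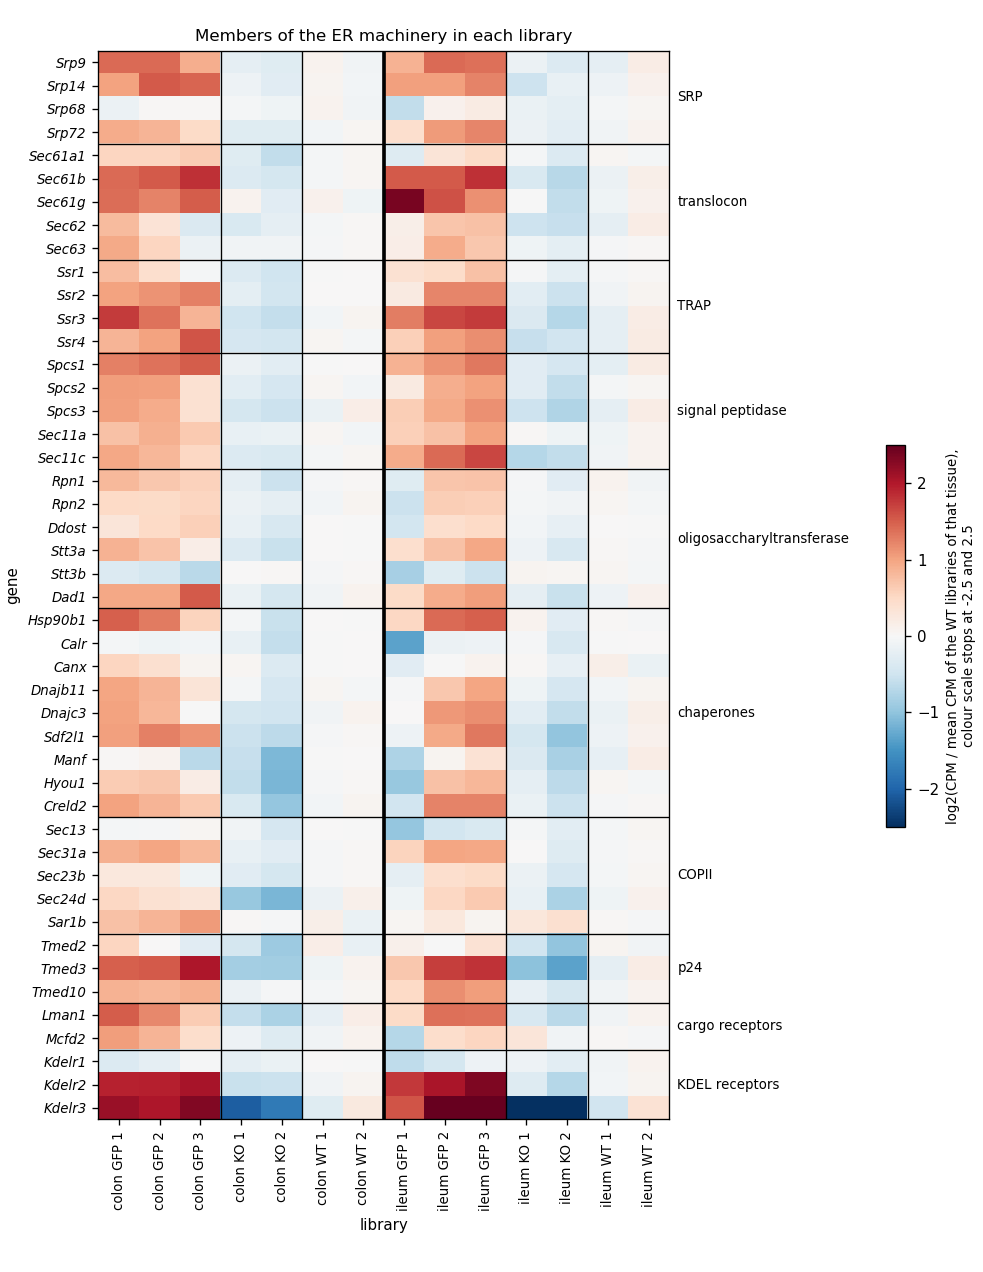
Level of each of the 46 genes (rows, grouped by role) in each of the 14 libraries (columns), as log2 of its CPM over the mean CPM of the WT libraries of the same tissue, with red for higher and blue for lower. With TMM scaling, most rows are red in GFP cells and pale blue in KO crypts, where the median member lies at -0.17 to -0.44, and Stt3b is blue in all GFP libraries.

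In colon KO crypts 45 of the 46 genes had a lower fitted level than in colon WT crypts, where 48.7% of all genes tested did. None of the 46 passed the test across all genes (edgeR's quasi-likelihood test with Benjamini-Hochberg adjustment, adjusted p under 0.05), and only 0.153% of all genes did. The median log2 fold change of the members was -0.35, against 0.01 over all genes tested, and the middle of the members ran from -0.49 at the lower quartile to -0.22 at the upper. An unadjusted p under 0.05 was reached by 25 of the 46 genes and by 7.69% of all genes. Both KO libraries lay below both WT libraries for 40 of the 46, against 20.1% of all genes, and none of the 46 had both KO libraries above. DESeq2's Wald test called 5 of the 46 lower in colon KO crypts, namely Kdelr3, Tmed3, Sec24d, Hyou1 and Lman1, where it called 0.679% of all genes. That test was run without the filter on low counts. Its shares here and below are over all genes with a count, 23114 in crypts and 28699 with GFP cells. Those of edgeR are over 14415 and 15274 genes, so the 2 kinds of share have different bases. With only the 4 colon crypt libraries in the edgeR fit, 3 were called, where 102 of 13801 genes were.

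In ileum KO crypts 3 of the 46 genes fell, namely Kdelr3, Tmed3 and Sec11c, where 1.22% of all genes were called and 1.09% were called lower. Fitted levels were lower for 43 of the 46, against 48.1% of all genes, and 17 had an unadjusted p under 0.05, against 13.4% of all genes, with a median log2 fold change of -0.27 over the members and 0.01 over all genes. Both KO libraries lay below both WT libraries for 36 of the 46, against 21.9% of all genes, and above them for 1, Sar1b, against 18%. Calls in ileum KO crypts depended on single libraries, over all genes as well as among the 46. Leaving out any ileum crypt library leaves 1 library in its group, so only effect sizes are given for these fits. The members' median log2 fold change became -0.38 when KO 1 was dropped and -0.14 when KO 2 was. Dropping WT 1 gave -0.36, and dropping WT 2 gave -0.19. Averaged over the tissues, the KO effect was called for Kdelr3, Tmed3 and Sec11c, all lower, where 2.45% of all genes were called and 1.96% were called lower. There, 44 of the 46 had a lower fitted level against 48.7% of all genes, 30 had an unadjusted p under 0.05 against 16.3% of all genes, and the median log2 fold change was -0.29 against 0.01 over all genes. DESeq2 called 18 of the 46 lower in that average, where it called 3.21% of all genes. The calls in the average also depended on single libraries, and all were lost without colon KO 1 or ileum KO 2. Each of these fits leaves 1 library in a group, and most calls over all genes were lost there as well. With each of the 8 crypt libraries left out in turn, the members' median in the average ran from -0.38 to -0.24. No member's KO effect differed between the tissues by edgeR's interaction test, where 0.00694% of all genes did. An unadjusted p under 0.05 was reached by 1 of the 46 and by 3.91% of all genes in that test, and DESeq2 called none of the 46 and 0.242% of all genes. By edgeR, Kdelr3 was called in that test only without ileum WT 1. That fit leaves 1 library in the group, and calls over all genes rose steeply there too. The members' median difference was -0.03 in that fit, against -0.08 in the main fit.

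**Figure D2:**
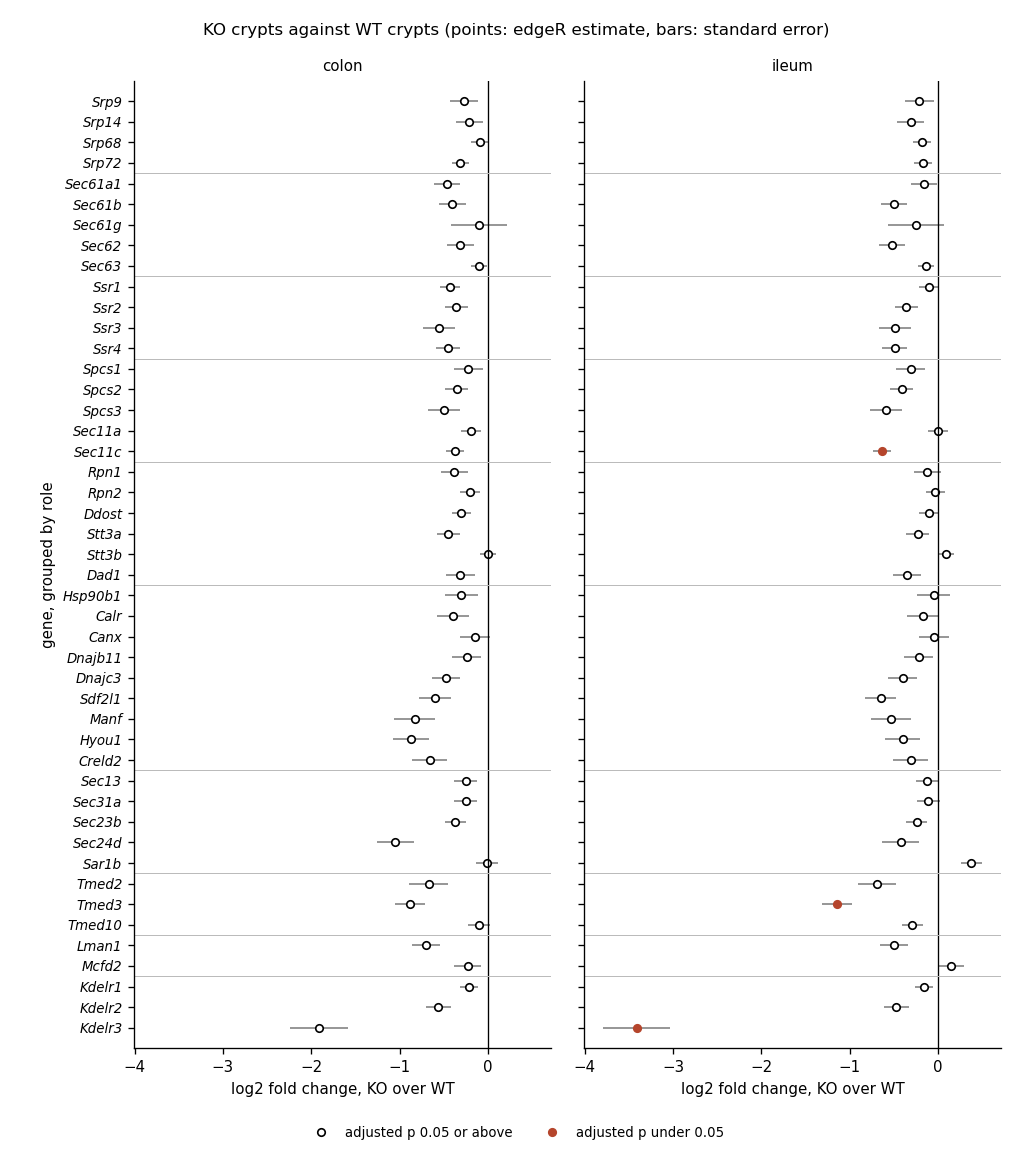
Log2 fold change of each gene in KO crypts over WT crypts (x axis), in colon (left) and ileum (right), with the standard error as bars and filled points where edgeR's adjusted p is under 0.05. Nearly all points lie left of 0 by less than 1, Kdelr3 lies far left in both tissues at -1.91 and -3.41, and the 3 filled points are all in ileum.

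In sorted cells most of the machinery was higher than in WT crypts relative to the median gene, which is what TMM scaling sets near 0. The WT libraries are the same ones that KO crypts were set against, so the GFP and KO results are not independent of each other. In colon GFP cells 28 of the 46 genes rose and 1, Stt3b, fell, where 45.9% of all genes were called, 22.3% higher and 23.6% lower. In ileum GFP cells 25 rose and 2, Stt3b and Sec13, fell, where 52.8% of all genes were called, 24.6% higher and 28.2% lower. The median log2 fold change of the members was 0.78 in colon and 0.77 in ileum, against 0.01 and -0.06 over all genes tested. All 3 GFP libraries lay above both WT libraries for 34 of the 46 genes in colon and for 25 in ileum, against 32.5 and 30.9% of all genes. They lay below for 3 genes in colon and 4 in ileum, against 34.6 and 34% of all genes. Of the genes that rose, 23 did so in both tissues, which is 82.1% of the colon list and 92% of the ileum list. Scaled to library totals over all genes instead, the median of all genes shifted to -0.93 in colon and -0.85 in ileum and that of the members to -0.15 and -0.04. With those totals 5 of the 46 rose and 11 fell in colon, where 5.83% of all genes were called higher and 57.4% lower, and 7 rose and 12 fell in ileum, where 8.65% were called higher and 54.2% lower. With totals that leave out mitochondrial ribosomal RNA, 23 rose and 2 fell in colon, against 16.1 and 28.3% of all genes, and 20 rose and 4 fell in ileum, against 18.1 and 34.3% of all genes. Changes in GFP cells below are given with TMM scaling, and with totals over all genes 13 of the 28 genes that rose in colon and 4 of the 25 in ileum had a log2 fold change below 0, against none with totals that leave out mitochondrial ribosomal RNA. Calls held for 15 genes in each tissue under every alternative run other than library totals, and for 5 in colon and 7 in ileum under these as well. The counts moved with single libraries. Without ileum GFP 1, 39 of the 46 were called in ileum, where 7957 of 15099 genes were called. Without WT 1 or WT 2, which leaves 1 WT library in the tissue, fewer members were called, and calls over all genes fell too. Without WT 1 and without WT 2 the members' median log2 fold change was 0.71 and 0.76 in colon. In ileum it was 0.68 and 0.83. The difference between the tissues was not called for any of the 46 genes, where 2.24% of all genes were called. An unadjusted p under 0.05 was reached in that test by 2 of the 46 and by 17.3% of all genes, and DESeq2 called 1 member, Sar1b, and 2.78% of all genes.

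**Figure D3:**
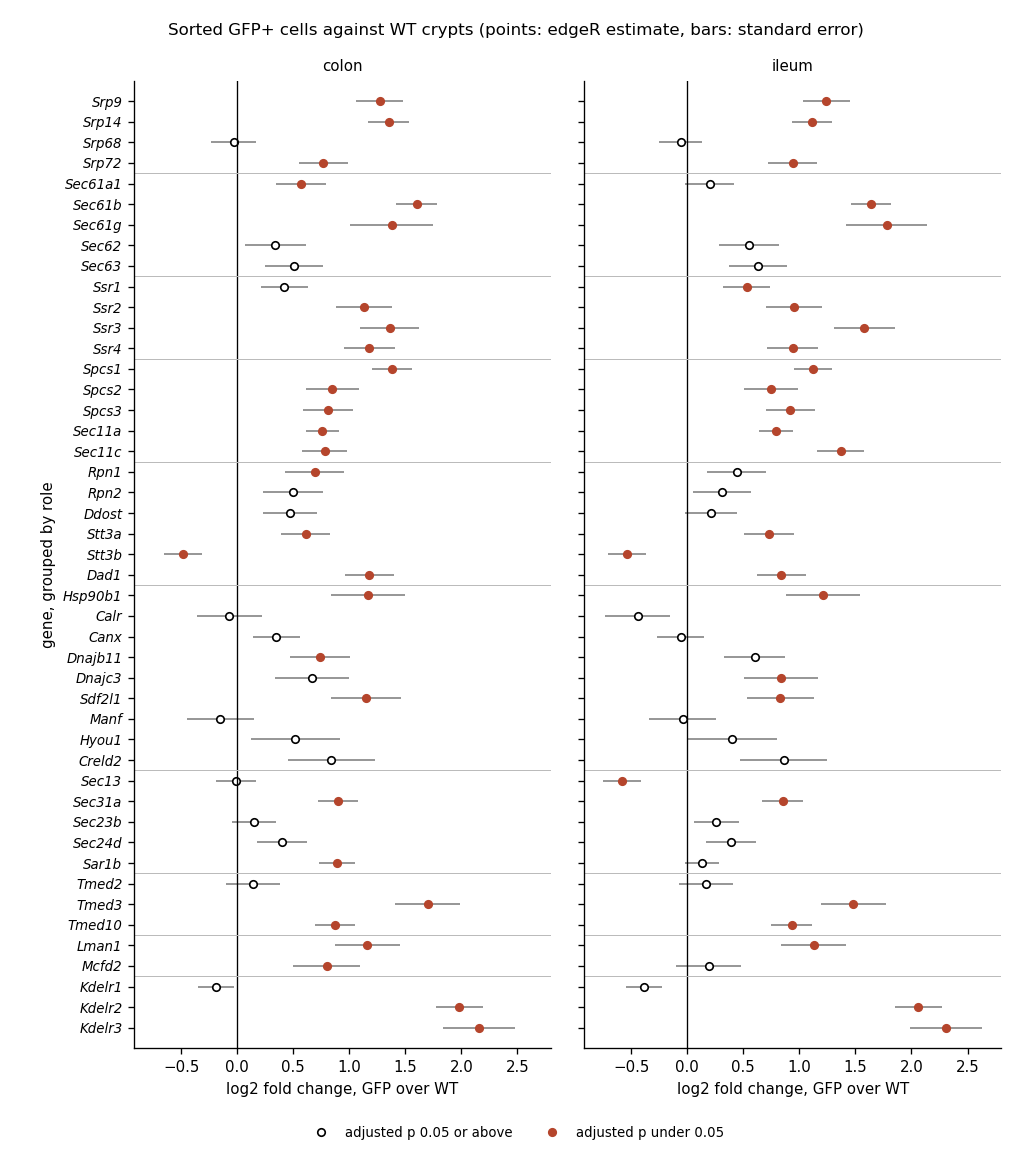
Log2 fold change of each gene in sorted GFP-positive cells over WT crypts (x axis), in colon (left) and ileum (right), with the standard error as bars and filled points where edgeR's adjusted p is under 0.05. With TMM scaling, filled points on the right number 28 in colon and 25 in ileum, Kdelr2 and Kdelr3 lie farthest right at about 2, and Stt3b lies left of 0 in both panels.

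Among the SRP proteins, which carry ribosomes with a nascent signal peptide to the ER, Srp9, Srp14 and Srp72 rose in GFP cells of both tissues and Srp68 did not pass the test. Srp9 and Srp14 form the part of the particle that slows translation. Srp14 had 64.4, 92.5 and 87.5 CPM in colon GFP cells, against 33.2 and 30.5 CPM in colon WT crypts, and 69.05, 69.3 and 80.5 CPM in ileum GFP cells, against 31.2 and 36.5 CPM in ileum WT crypts. The groups did not overlap in either tissue, and the log2 fold changes were 1.35 ± 0.18 in colon and 1.11 ± 0.18 in ileum (errors after ± are standard errors; edgeR adjusted p = 6.13e-05 and 0.000213). Srp9 had 67.7, 67.7 and 47.6 CPM in colon GFP cells, against 26.7 and 23.8 CPM in colon WT crypts, and 49.3, 72.00 and 70.6 CPM in ileum GFP cells, against 23.2 and 31.03 CPM in ileum WT crypts, again without overlap. Srp9 changed by 1.27 ± 0.21 and 1.24 ± 0.21 on the same scale, and Srp72, a scaffold of the particle, by 0.77 ± 0.22 and 0.94 ± 0.22, a rise that was lost in colon without WT 1 or WT 2. Srp68, the partner of Srp72 in the particle, had 72.5, 81.5 and 81.2 CPM in colon GFP cells, against 84.9 and 75.1 CPM in colon WT crypts, and those groups overlapped. Per kilobase of exon, Srp14 was the highest of the 4 over the 6 groups, at 68.2 CPM per kb in colon GFP cells and 26.7 in colon WT crypts. In KO crypts the 4 genes had log2 fold changes of -0.31 to -0.09 in colon and -0.31 to -0.17 in ileum, none called.

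In the translocon, Sec61b and Sec61g, which encode the small beta and gamma subunits of the channel, rose in GFP cells of both tissues, and Sec61a1, which encodes the pore itself, rose in colon. Sec61b had 91.8, 99.2 and 123 CPM in colon GFP cells, 27.1 and 25.5 CPM in KO crypts and 33.2 and 35.7 CPM in WT crypts. Ileum values were 117, 117 and 143 CPM in GFP cells, 30.9 and 25.1 CPM in KO crypts and 36.2 and 44.5 CPM in WT crypts. GFP cells stood above WT crypts and WT above KO crypts in every library of both tissues, and the log2 fold changes of GFP over WT were 1.60 ± 0.18 in colon and 1.64 ± 0.18 in ileum (edgeR adjusted p = 1.24e-05 and 7.33e-06). A limit on Sec61b is that 41% of the 50-base stretches of its exons also occur in other genes, and alignments to several sites were not counted. Sec61g had 6.81, 6.11 and 7.33 CPM in colon GFP cells, against 2.77 and 2.40 CPM in colon WT crypts, and 17.9, 10.4 and 7.72 CPM in ileum GFP cells, against 3.20 and 3.74 CPM in ileum WT crypts. Its groups did not overlap, with log2 fold changes of 1.38 ± 0.37 in colon, lost without WT 2, and 1.78 ± 0.36 in ileum. Sec61a1 had 479, 478 and 509 CPM in colon GFP cells, 268 and 214 CPM in KO crypts and 318 and 340.3 CPM in WT crypts. Its colon change of 0.57 ± 0.22 in GFP cells passed narrowly (edgeR adjusted p = 0.0496) and was lost without any of the 5 colon GFP and WT libraries, and in ileum its change was 0.20 ± 0.22. Sec62 and Sec63, membrane partners of the channel in post-translational import, were not called in GFP cells, with log2 fold changes of 0.34 to 0.63, although both were called higher in colon without GFP 3 and in ileum without GFP 1. In KO crypts the 5 genes had log2 fold changes of -0.46 to -0.10 in colon and -0.52 to -0.14 in ileum, none called.

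The TRAP complex, which sits beside the channel and helps some signal peptides to open it, had Ssr2, Ssr3 and Ssr4 called higher in GFP cells of both tissues and Ssr1 in ileum. Ssr3, its gamma subunit, had 964, 736 and 520.2 CPM in colon GFP cells, 205 and 192 CPM in KO crypts and 274 and 302 CPM in WT crypts. The ileum groups had 899.9, 1179 and 1244 CPM in GFP cells, 288 and 226 CPM in KO crypts and 318 and 422 CPM in WT crypts. Each GFP library was above each WT library and each KO library was below. The log2 fold changes of GFP over WT were 1.36 ± 0.26 in colon and 1.58 ± 0.27 in ileum (edgeR adjusted p = 0.000938 and 0.000243), and those of KO over WT were -0.55 ± 0.18 and -0.49 ± 0.18, not called. Ssr1, the alpha subunit, had 306, 326 and 395 CPM in ileum GFP cells, 231 and 199 CPM in KO crypts and 232 and 240.2 CPM in WT crypts, and its rise of 0.53 ± 0.21 in ileum was lost without any of GFP 2, GFP 3, WT 1 and WT 2. The ileum calls of Ssr2, the beta subunit, and Ssr4 were lost without WT 1. Ssr4, the delta subunit, had log2 fold changes of 1.18 ± 0.23 and 0.94 ± 0.23 in GFP cells and -0.45 ± 0.14 and -0.49 ± 0.14 in KO crypts. In KO crypts both libraries lay below both WT libraries for all 4 TRAP genes in both tissues, with none called.

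All 5 signal peptidase genes rose in GFP cells of both tissues, with log2 fold changes of 0.76 to 1.38 in colon and 0.75 to 1.37 in ileum. In colon the calls of Spcs2, Spcs3 and Sec11c were lost without WT 1 and that of Spcs2 also without WT 2. In ileum the call of Spcs3 was lost without WT 1, and that of Spcs2 without any of GFP 2, GFP 3, WT 1 and WT 2. Sec11c, a catalytic subunit, had 187, 261 and 310.5 CPM in ileum GFP cells, 60.1 and 63.7 CPM in ileum KO crypts and 92.3 and 104 CPM in ileum WT crypts. These 3 groups did not overlap, and Sec11c fell in ileum KO crypts with a log2 fold change of -0.63 ± 0.10 (edgeR adjusted p = 0.0396). The call was lost without ileum KO 1, KO 2 or WT 2, with an adjusted p of up to 0.26. In colon Sec11c had 209, 189.7 and 153 CPM in GFP cells, 84.5 and 82.1 CPM in KO crypts and 104 and 110.3 CPM in WT crypts, and its KO change of -0.37 ± 0.10 was not called. Sec11a, the paralogue with the same activity, had 107, 116 and 141 CPM in ileum GFP cells, 71.9 and 65.04 CPM in KO crypts and 65.6 and 74.96 CPM in WT crypts. Its ileum KO and WT libraries overlapped, with a log2 fold change of -0.00 ± 0.11, and its rise in GFP cells was 0.76 ± 0.15 in colon and 0.79 ± 0.15 in ileum. Spcs1, an accessory subunit, had 118, 126 and 139.9 CPM in colon GFP cells, against 48.8 and 49.6 CPM in colon WT crypts. Its groups did not overlap and its rise of 1.38 ± 0.18 was the largest of the role in colon, with the limit that 16.3% of its exon bases overlap Glt8d1 on the opposite strand. Spcs3, an accessory subunit with the highest level per kilobase of the role over the 6 groups, had 277, 350.1 and 396 CPM in ileum GFP cells, 127 and 107 CPM in KO crypts and 155 and 206 CPM in WT crypts. GFP cells stood above WT and WT above KO crypts in every library, and it rose in ileum GFP cells by 0.92 ± 0.22, while its KO change of -0.59 ± 0.18 was not called.

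Of the oligosaccharyltransferase genes, the alternative catalytic subunits were called in opposite directions in GFP cells: Stt3a rose and Stt3b fell, in both tissues, although with library totals over all genes Stt3a too was below 0, at -0.31 in colon and -0.08 in ileum. STT3A works beside the translocon on proteins as they enter the ER, and STT3B glycosylates sites that were skipped. Stt3a had 429, 387 and 264 CPM in colon GFP cells, against 238 and 234 CPM in colon WT crypts, and 425, 526 and 622 CPM in ileum GFP cells, against 322 and 312 CPM in ileum WT crypts. Stt3b had 152, 142 and 121 CPM in colon GFP cells, against 188 and 196 CPM in colon WT crypts, and 141, 202 and 173 CPM in ileum GFP cells, against 258 and 241 CPM in ileum WT crypts. Neither gene's groups overlapped in either tissue. The log2 fold changes were 0.61 ± 0.22 and 0.73 ± 0.22 for Stt3a (edgeR adjusted p = 0.0356 in colon and 0.0134 in ileum) and -0.48 ± 0.17 and -0.54 ± 0.17 for Stt3b (edgeR adjusted p = 0.03 and 0.0139). These calls depend on the libraries used: in colon both were lost without GFP 2, WT 1 or WT 2, Stt3a also without GFP 1 and Stt3b also without GFP 3. In ileum Stt3a was lost without GFP 3, WT 1 or WT 2 and Stt3b without WT 1. In KO crypts Stt3b had 192 and 196 CPM in colon and 264 and 257 CPM in ileum, with log2 fold changes of 0.00 ± 0.09 and 0.09 ± 0.09, while Stt3a had -0.45 ± 0.13 and -0.23 ± 0.13, none called. Dad1, a small structural subunit, rose in GFP cells by 1.18 ± 0.22 in colon and 0.84 ± 0.22 in ileum. The ileum call of Dad1 was lost without WT 1. Rpn1, which presents substrates to the enzyme, rose in colon (0.69 ± 0.26), lost without GFP 1, GFP 2, WT 1 or WT 2, and Rpn2 and Ddost, structural subunits, were not called. Ddost, with the highest level per kilobase of the role, had 331, 376 and 406 CPM in colon GFP cells, 235 and 202 CPM in KO crypts and 268 and 267 CPM in WT crypts, with GFP above WT and WT above KO in every library. Without ileum GFP 1, where the role's median was below the WT mean, Rpn1, Rpn2 and Ddost were also called higher in ileum.

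**Figure D4:**
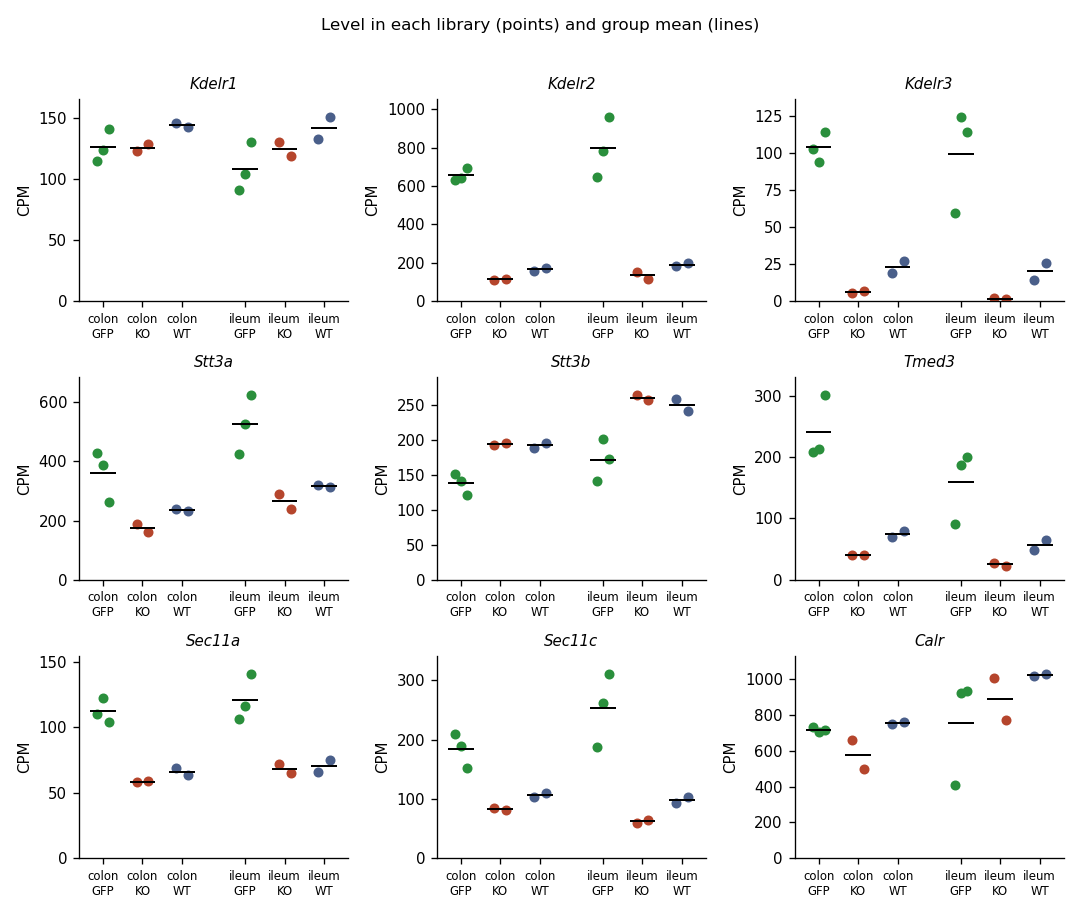
TMM-scaled CPM (y axis, from 0) of 9 genes in each library, with points for libraries, black lines for group means, and GFP cells in green, KO crypts in red and WT crypts in blue. Kdelr2 and Kdelr3 are far above the crypts in GFP cells while Kdelr1 is not, Stt3a is above and Stt3b below the crypts in GFP cells, and Sec11c is lower in ileum KO crypts where Sec11a overlaps.

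Of the 9 ER chaperones and their partners, 3 rose in colon GFP cells (Hsp90b1, Dnajb11 and Sdf2l1) and 3 in ileum GFP cells (Hsp90b1, Dnajc3 and Sdf2l1). Hsp90b1, the ER form of HSP90, had 1372, 1201 and 714 CPM in colon GFP cells, 467 and 329 CPM in KO crypts and 486 and 484 CPM in WT crypts. For ileum the values were 1019, 1897 and 1990 CPM in GFP cells, 758 and 584 CPM in KO crypts and 719 and 699 CPM in WT crypts. All GFP libraries lay above the WT libraries, ileum KO and WT overlapped, and the log2 fold changes of GFP over WT were 1.17 ± 0.33 in colon and 1.21 ± 0.33 in ileum (edgeR adjusted p = 0.00961 and 0.0069). The colon call was lost without WT 1 or WT 2, and the ileum call without both WT 2 libraries. Sdf2l1 had 81.8, 96.4 and 87.5 CPM in colon GFP cells, 27.7 and 25.5 CPM in KO crypts and 39.3 and 40.8 CPM in WT crypts, with GFP above WT and WT above KO in every library. Sdf2l1, a partner of BiP, rose by 1.15 ± 0.31 and 0.83 ± 0.30, Dnajb11, a co-chaperone of BiP, by 0.74 ± 0.27 in colon, and Dnajc3, another BiP co-chaperone, by 0.84 ± 0.33 in ileum. Each of these calls was lost without WT 1 or WT 2 of its tissue, and those of Dnajb11, of Dnajc3 and of Sdf2l1 in ileum also without either of a pair of GFP libraries (GFP 1 or 2 in colon, GFP 2 or 3 in ileum). The lectin chaperones of glycoproteins were not called. Calr had 729.7, 702 and 716 CPM in colon GFP cells, 659 and 496 CPM in KO crypts and 747 and 759 CPM in WT crypts, and 407, 924 and 935 CPM in ileum GFP cells, 1006 and 770.0 CPM in KO crypts and 1019 and 1028 CPM in WT crypts. All 6 GFP values of Calr lay below the WT values of their tissue, with log2 fold changes of -0.07 ± 0.29 and -0.44 ± 0.29, and for Canx the fold changes were 0.35 ± 0.21 and -0.06 ± 0.21. Per kilobase, Calr was the highest chaperone over the 6 groups and Hsp90b1 was above it in GFP cells, at 406 CPM per kb of Hsp90b1 and 262 of Calr in ileum.

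In KO crypts no chaperone was called by edgeR, while DESeq2 called Hyou1 in colon, and the 4 genes with the most negative log2 fold changes in colon were Hyou1 (-0.87 ± 0.20), Manf (-0.83 ± 0.23), Creld2 (-0.66 ± 0.20) and Sdf2l1 (-0.60 ± 0.18). Hyou1, a large HSP70 relative, had 298, 308 and 218 CPM in colon GFP cells, 125 and 86.4 CPM in KO crypts and 188 and 196 CPM in WT crypts. In ileum it had 152, 487 and 524 CPM in GFP cells, 250.4 and 185 CPM in KO crypts and 302 and 284 CPM in WT crypts. Colon kept the order GFP above WT above KO without overlap, and in ileum GFP 1 lay below all crypt libraries while GFP 2 and 3 lay above them. Manf, a stress-induced ER protein, had 121, 126 and 74.96 CPM in colon GFP cells, 79.8 and 54.6 CPM in KO crypts and 118 and 119.5 CPM in WT crypts. Its GFP and WT libraries overlapped, with log2 fold changes of -0.15 ± 0.30 in colon and -0.04 ± 0.30 in ileum, neither called. Creld2, a disulfide isomerase-like protein, was not called in GFP cells (0.84 ± 0.39 and 0.86 ± 0.39), and without ileum GFP 1 Creld2, Hyou1 and Dnajb11 were called higher in ileum.

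The unfolded protein response acts on ER genes through the ER stress response element (ERSE), which the transcription factors ATF6 and XBP1 bind together with NF-Y. RefSeq promoter windows of GRCm38.p6, from 250 bases before to 50 after the start site, were found for 36 of the 46 genes, 39 windows in all. The ERSE, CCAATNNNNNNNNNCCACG on either strand, occurred in 12.8% of these windows and in 0.119% of all 32851 windows of the table, with exact letters required. Its 5 genes, Hsp90b1, Calr, Canx, Dnajc3 and Creld2, are all chaperones or their partners. The related ERSE-II, ATTGG and CCACG with any 1 base between them on either strand, occurred in 2.56% of member windows, that of Dnajb11, and in 0.0365% of all windows. The ERSE contains CCAAT, found in 59% of member windows and 37.4% of all windows, and CCACG, in 69.2% and 32.8%, so a window with an ERSE is counted for these as well. The E-boxes CAGCTG and CAGATG, a kind of site that basic helix-loop-helix factors such as ATOH1 bind, occurred in 5.13 and 7.69% of member windows, against 16.3 and 17.2% of all windows. The upstream 250 bases of 3 chaperone genes are shown because the gene that rose in GFP cells of both tissues, the gene called in ileum and the gene that was not called all hold the motif. They lie at chr10:86705445-86705694 (minus strand), chr14:118937682-118937931 (plus strand) and chr8:84846932-84847181 (minus strand), and each is read 5′ to 3′ along the gene with the ERSE, on either strand, in capitals.
Hsp90b1: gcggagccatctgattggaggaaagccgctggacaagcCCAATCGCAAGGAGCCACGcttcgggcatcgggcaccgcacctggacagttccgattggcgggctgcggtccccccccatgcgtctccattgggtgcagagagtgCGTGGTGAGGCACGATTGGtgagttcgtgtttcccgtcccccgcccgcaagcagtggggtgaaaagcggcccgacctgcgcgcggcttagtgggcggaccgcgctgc
Dnajc3: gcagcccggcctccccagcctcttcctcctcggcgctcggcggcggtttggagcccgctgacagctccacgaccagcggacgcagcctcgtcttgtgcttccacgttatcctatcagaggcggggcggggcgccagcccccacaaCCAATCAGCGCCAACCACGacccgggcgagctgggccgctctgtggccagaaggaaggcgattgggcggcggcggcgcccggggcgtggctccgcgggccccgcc
Calr: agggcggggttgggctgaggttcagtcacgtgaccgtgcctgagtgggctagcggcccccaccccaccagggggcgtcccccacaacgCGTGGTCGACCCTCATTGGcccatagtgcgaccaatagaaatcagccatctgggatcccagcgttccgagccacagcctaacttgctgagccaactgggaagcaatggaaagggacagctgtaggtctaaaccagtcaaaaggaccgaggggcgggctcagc
Hsp90b1 holds the element at -212 and, on the other strand, at -107 from the start site, Dnajc3 at -105 and Calr, on the other strand, at -162. Canx, whose copy at -145 reads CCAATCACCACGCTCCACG, was also not called in GFP cells. A match is a description of these letters, and binding of any factor was not measured here.

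In the COPII coat, Sec31a, of the outer coat, rose in GFP cells of both tissues, Sar1b, the small GTPase that starts the coat, rose in colon, and Sec13, the partner of Sec31a, fell in ileum. Sec31a had 458, 492 and 431 CPM in colon GFP cells, against 241 and 253 CPM in colon WT crypts, and 455, 611 and 606 CPM in ileum GFP cells, against 304 and 314 CPM in ileum WT crypts. Sec13 had 91.1, 93.1 and 98.00 CPM in colon GFP cells, against 94.9 and 93.96 CPM in colon WT crypts, and 78.8, 112 and 119 CPM in ileum GFP cells, against 149 and 159.5 CPM in ileum WT crypts. The libraries of Sec31a did not overlap in either tissue, and those of Sec13 overlapped in colon only. The log2 fold changes were 0.90 ± 0.18 and 0.85 ± 0.18 for Sec31a, and -0.01 ± 0.18 and -0.58 ± 0.17 for Sec13, whose ileum call (edgeR adjusted p = 0.0128) was lost without ileum WT 2. Sar1b had 109, 119 and 138 CPM in colon GFP cells, 67.05 and 64.8 CPM in KO crypts and 73.2 and 58.2 CPM in WT crypts. Ileum values were 98.2, 114 and 99.1 CPM in GFP cells, 115 and 125 CPM in KO crypts and 96.5 and 92.5 CPM in WT crypts. Its GFP cells stood above the crypts in colon, with 0.89 ± 0.16 (edgeR adjusted p = 0.000438), while in ileum its KO crypts stood highest, with a KO change of 0.38 ± 0.12 that was not called (edgeR adjusted p = 0.224). Colon minus ileum, the GFP effect on Sar1b differed by 0.75 ± 0.21 (edgeR adjusted p = 0.0886; DESeq2 adjusted p = 0.0207).

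Sec24d and Sec23b, which form the inner coat that selects cargo, were not called in GFP cells. Sec24d had 133, 121 and 115 CPM in colon GFP cells, 48.2 and 42.1 CPM in KO crypts and 83.5 and 102 CPM in WT crypts. The ileum groups had 112, 174 and 190.4 CPM in GFP cells, 106 and 70.2 CPM in KO crypts and 112 and 130.0 CPM in WT crypts. In colon GFP cells stood above WT and WT above KO crypts in every library, and in ileum GFP and WT overlapped. The KO change of Sec24d was -1.05 ± 0.21 in colon, the second most negative of the 46 genes there (edgeR adjusted p = 0.201; the smallest over the alternatives was 0.0016, with DESeq2), and -0.42 ± 0.21 in ileum. Sec24d and Kdelr3 are the members whose promoter windows hold the unfolded protein response element (UPRE) TGACGTGG on either strand, found in 5.13% of member windows and 0.676% of all windows. The 250 bases upstream of Sec24d, at chr3:123267246-123267495 on the plus strand of GRCm38.p6, are shown with this element, at -26, in capitals.
Sec24d: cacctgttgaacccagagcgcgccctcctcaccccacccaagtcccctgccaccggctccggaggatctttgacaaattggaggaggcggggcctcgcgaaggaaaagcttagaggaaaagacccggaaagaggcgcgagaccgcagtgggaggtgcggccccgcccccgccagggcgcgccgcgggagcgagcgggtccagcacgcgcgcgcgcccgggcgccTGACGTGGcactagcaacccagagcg

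Of the p24 proteins, which sort cargo at the ER exit, Tmed3 and Tmed10 rose in GFP cells of both tissues and Tmed3 fell in ileum KO crypts. Tmed3 had 208, 214 and 300.4 CPM in colon GFP cells, 41.1 and 40.2 CPM in KO crypts and 68.98 and 78.97 CPM in WT crypts. For ileum the values were 91.2, 188 and 199 CPM in GFP cells, 27.8 and 22.7 CPM in KO crypts and 48.9 and 65.2 CPM in WT crypts. The order GFP above WT above KO held in every library of both tissues. The log2 fold changes of KO over WT were -0.88 ± 0.17 in colon, not called (edgeR adjusted p = 0.174), and -1.14 ± 0.17 in ileum (edgeR adjusted p = 0.0342), and the ileum call was lost without ileum KO 1 or KO 2, with an adjusted p of up to 0.295. Those of GFP over WT were 1.70 ± 0.29 and 1.48 ± 0.29 (edgeR adjusted p = 0.000428 and 0.000886). Tmed10, a core p24 subunit, rose by 0.87 ± 0.18 and 0.93 ± 0.18, and Tmed2, another core subunit, was not called (0.14 ± 0.24 and 0.17 ± 0.24). Other genes share 32.4% of the 50-base stretches of Tmed10 and 27.6% of those of Tmed2.

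The cargo receptor Lman1 (ERGIC-53), a lectin that carries glycoproteins out of the ER, rose in GFP cells of both tissues, and its partner Mcfd2 rose in colon. Lman1 had 289, 234 and 158 CPM in colon GFP cells, 67.7 and 58.8 CPM in KO crypts and 88.7 and 115 CPM in WT crypts. In ileum it had 239.7, 449.5 and 443 CPM in GFP cells, 131 and 108 CPM in KO crypts and 162 and 182 CPM in WT crypts. The groups of Lman1 did not overlap in either tissue. Its log2 fold changes of GFP over WT were 1.16 ± 0.29 and 1.13 ± 0.29 (edgeR adjusted p = 0.00508 and 0.00467), the colon call was lost without WT 1, and its averaged KO change of -0.60 ± 0.12 missed the threshold (edgeR adjusted p = 0.0501). Mcfd2 had 67.5, 150.4 and 162 CPM in ileum GFP cells, 137 and 105 CPM in KO crypts and 114 and 109 CPM in WT crypts, and all 3 ileum groups overlapped, with GFP 1 the lowest library. In colon its rise of 0.80 ± 0.30 (edgeR adjusted p = 0.0424) was lost without any of GFP 1, GFP 2, WT 1 and WT 2.

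KDEL receptors, which return chaperones with a KDEL end from the Golgi to the ER, held the largest changes of the machinery in both comparisons. Kdelr3 had 103, 94.2 and 114 CPM in colon GFP cells, 5.57 and 6.82 CPM in KO crypts and 18.8 and 27.4 CPM in WT crypts. Ileum values were 59.7, 124 and 114 CPM in GFP cells, 2.03 and 1.66 CPM in KO crypts and 14.3 and 25.9 CPM in WT crypts. The lowest GFP library was more than double the highest WT library in both tissues, and every KO library was below every WT library. Kdelr3 fell in ileum KO crypts with a log2 fold change of -3.41 ± 0.38 (edgeR adjusted p = 0.0144) and over the average of the tissues with -2.66 ± 0.25 (edgeR adjusted p = 0.00567). In colon alone its change of -1.91 ± 0.33 was not called (edgeR adjusted p = 0.146), and the smallest adjusted p over the alternatives there was 0.000165, with DESeq2. The ileum call was lost without ileum KO 1 or KO 2, with an adjusted p of up to 0.2. In GFP cells Kdelr3 rose by 2.16 ± 0.32 in colon and 2.31 ± 0.32 in ileum (edgeR adjusted p = 0.000138 and 6.91e-05). The 250 bases upstream of Kdelr3, at chr15:79516158-79516407 on the plus strand of GRCm38.p6, are shown with the UPRE, here on the other strand at -30, in capitals.
Kdelr3: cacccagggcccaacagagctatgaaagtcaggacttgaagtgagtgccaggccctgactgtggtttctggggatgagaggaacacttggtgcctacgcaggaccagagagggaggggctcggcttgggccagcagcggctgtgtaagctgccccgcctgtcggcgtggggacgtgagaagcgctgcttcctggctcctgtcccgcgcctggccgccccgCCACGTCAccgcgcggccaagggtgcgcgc

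Kdelr2 also rose in GFP cells of both tissues, and Kdelr1 was not called in either. Kdelr2 had 632, 643 and 696 CPM in colon GFP cells, 113 and 114 CPM in KO crypts and 158 and 175 CPM in WT crypts. The ileum groups had 646, 783 and 960.3 CPM in GFP cells, 153 and 116 CPM in KO crypts and 182 and 199.5 CPM in WT crypts. Its GFP libraries were all far above the crypts, and its KO libraries were below the WT libraries in both tissues. The log2 fold changes of GFP over WT were 1.98 ± 0.21 and 2.06 ± 0.21 (edgeR adjusted p = 7.15e-06 and 3.72e-06), and the averaged KO change of -0.52 ± 0.10 missed the threshold (edgeR adjusted p = 0.0522). Kdelr1 had 114, 124 and 141 CPM in colon GFP cells, 123 and 129 CPM in KO crypts and 146 and 142 CPM in WT crypts. Its GFP values were all below the WT values in both tissues, with log2 fold changes of -0.19 ± 0.16 and -0.39 ± 0.16, not called, although the ileum value was called without GFP 3. Per kilobase of exon, colon GFP cells had 67.4 CPM per kb of Kdelr1, 359 of Kdelr2 and 73.6 of Kdelr3. Colon KO crypts had 67.05, 62.3 and 4.39 CPM per kb of these 3 genes, and colon WT crypts had 76.97, 90.98 and 16.4.

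Much of the machinery had a lower level in colon than in ileum. In WT crypts 12 of the 46 genes were lower in colon than in ileum and none higher, where 19.9% of all genes were called, 9.71% lower and 10.2% higher. Among the members 40 had a lower fitted level in colon, against 50.5% of all genes, and the median log2 fold change was -0.35 against -0.01 over all genes. In KO crypts 20 were lower in colon and 3, Sec11c, Tmed3 and Kdelr3, were higher, where 25.7% of all genes were called, 12.6% lower and 13.1% higher. All 5 COPII genes were lower in colon KO crypts. The higher values of Sec11c, Tmed3 and Kdelr3 in colon KO crypts are those of the genes that fell in ileum KO crypts, and both tests use the ileum KO libraries. Atoh1 was itself called higher in colon KO than in ileum KO crypts, by 2.81 on the log2 scale. Of 10 goblet markers 6 were higher there and 0 lower, and of 10 Paneth markers 1 was higher and 7 lower. Whether this bears on the 3 genes was not tested. In sorted cells 2 genes, Ssr1 and Lman1, were lower in colon, where 22.7% of all genes were called and 10.2% were called lower. Without ileum GFP 1, 18 of the 46 were lower, where 1405 of 15099 genes were.

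Mcfd2, Sar1b, Sec13 and Ssr1 were the genes whose colon KO against ileum KO calls held under every alternative run. Mcfd2 had 57.6 and 50.1 CPM in colon KO crypts, against 137 and 105 CPM in ileum KO crypts, and 58.8 and 66.7 CPM in colon WT crypts, against 114 and 109 CPM in ileum WT crypts. Its log2 fold change of colon over ileum was -1.20 ± 0.15 in KO crypts and -0.81 ± 0.15 in WT crypts (edgeR adjusted p = 0.00164 and 0.00982), and -0.21 ± 0.26 in GFP cells, not called. For Sar1b it was -0.90 ± 0.12 in KO crypts and -0.51 ± 0.12 in WT crypts, both called, and 0.23 ± 0.14 in GFP cells, not called. For Sec13 it was -0.83 ± 0.13 and -0.70 ± 0.13, both called, and -0.14 ± 0.16, not called. Lman1 was lower in colon in all 3 kinds of sample, with -0.73 ± 0.25 in GFP cells, -0.95 ± 0.17 in KO crypts and -0.75 ± 0.16 in WT crypts (edgeR adjusted p = 0.0478, 0.00637 and 0.02). Ssr1 was likewise lower in all 3, with -0.58 ± 0.19, -0.78 ± 0.11 and -0.46 ± 0.11. Of the 20 lower in KO crypts, Hyou1 (-1.07 ± 0.20) and Sec24d had the largest differences after Mcfd2. Single libraries decided many of the calls. WT calls were mostly lost without colon WT 1 or colon WT 2, which leaves 1 library in the group, and calls over all genes fell too. The same held for many KO calls without colon KO 1, colon KO 2 or ileum KO 1. The members' median log2 fold change was -0.28 and -0.36 in these WT fits and -0.47, -0.32 and -0.27 in these KO fits. GFP calls numbered 0 without colon GFP 2, colon GFP 3 or ileum GFP 2, where 2423 of 15154, 2416 of 15179 and 2969 of 15219 genes were called. They numbered 1 without ileum GFP 3 and 6 without colon GFP 1, where 2954 of 15196 and 3960 of 15228 genes were called.

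**Figure D5:**
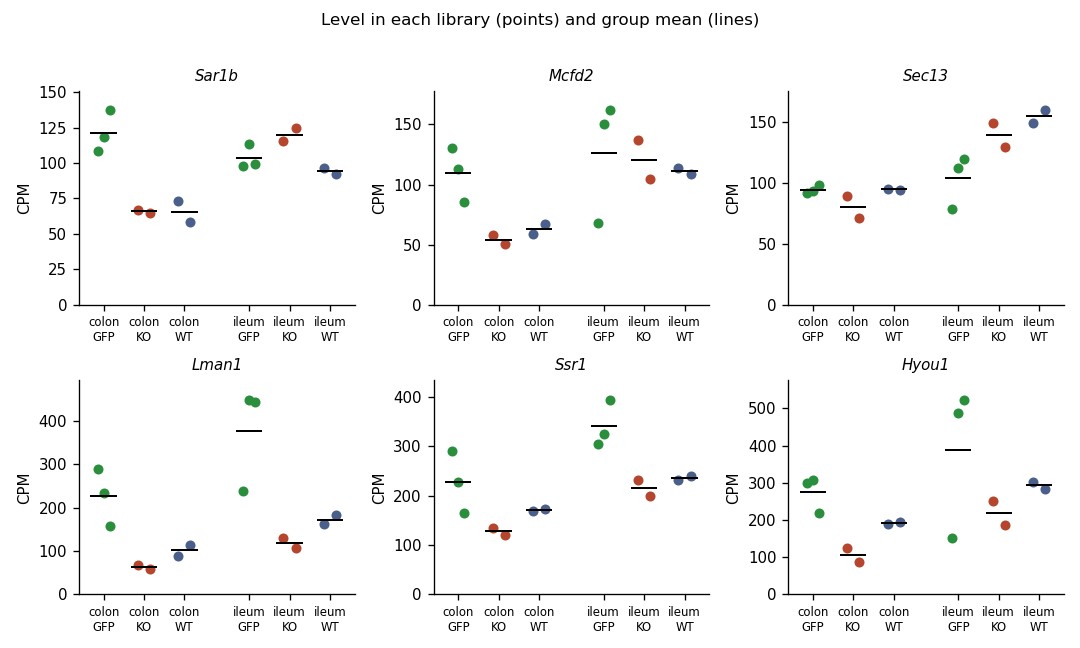
TMM-scaled CPM (y axis, from 0) of 6 genes in each library, with points for libraries, black lines for group means, and GFP cells in green, KO crypts in red and WT crypts in blue. Sar1b, Mcfd2 and Sec13 are lower in colon crypts than in ileum crypts, and the GFP groups of the tissues overlap for these 3 genes.

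Other genes of the same pathways, from wider lists that hold none of the 46, were called in GFP cells in every list, where 45.9% of all genes were called in colon and 52.8% in ileum. None was called in colon KO crypts by edgeR, and DESeq2 called 2 of the wider chaperones and 1 COPI gene lower there. Unadjusted p-values under 0.05 in colon KO crypts were reached by 4 to 11 genes per list. Of the wider translocation genes (17 tested: further SRP, tail-anchor insertion and ER membrane complex genes), 7 rose and 3 fell in colon GFP cells and 5 rose and 4 fell in ileum GFP cells, with median log2 fold changes of 0.35 and 0.16. Those that rose were 41.2% of the list in colon and 29.4% in ileum, against 22.3 and 24.6% of all genes, so the ileum share is near that of all genes. Srp19, a further SRP protein, rose by 1.36 ± 0.20 and 1.43 ± 0.20, and Get4, of the tail-anchor pathway in the cytosol, fell, with -1.66 ± 0.25 and -1.88 ± 0.25 on the log2 scale, as did its pathway partners Sgta and Bag6. Of 22 further glycosylation genes, 13 rose and 2 fell in colon GFP cells and 15 rose and 3 fell in ileum GFP cells, with medians of 0.79 and 0.90. Alg8, which adds glucose to the glycan precursor, rose by 2.64 ± 0.32 and 2.17 ± 0.31, and Alg11, a mannosyltransferase, by 2.01 ± 0.19 and 1.85 ± 0.19. Alg1, an early mannosyltransferase of the same chain, fell, with -1.08 ± 0.23 and -1.37 ± 0.24, as did Tusc3, a subunit that works with STT3B, with -0.80 ± 0.20 and -0.86 ± 0.20. Ostc, a subunit that works with STT3A, fell in the averaged KO effect (-0.52 ± 0.10) and rose in GFP cells (1.44 ± 0.19 in colon and 1.56 ± 0.19 in ileum).

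Among 29 further chaperones and folding enzymes tested, 17 rose and 1 fell in colon GFP cells, 18 rose and 2 fell in ileum GFP cells, and 6 fell in the averaged KO effect. Their medians were 0.81 in colon GFP cells, 0.99 in ileum GFP cells and -0.24 in the averaged KO effect. Fkbp11, an ER prolyl isomerase, had 75.8, 60.96 and 77.7 CPM in colon GFP cells, 2.24 and 1.83 CPM in KO crypts and 5.20 and 12.3 CPM in WT crypts. For ileum the values were 49.95, 105 and 101 CPM in GFP cells, 1.80 and 1.66 CPM in KO crypts and 7.40 and 21.8 CPM in WT crypts. GFP cells stood above WT and WT above KO crypts without overlap in both tissues, with an averaged KO change of -2.58 ± 0.45 (edgeR adjusted p = 0.0411). Rcn1, a calcium-binding ER protein, and Dnajc10, a disulfide reductase, fell in the same average, with -1.48 ± 0.24 and -1.03 ± 0.15. Hspa5 (BiP), the HSP70 of the ER and the partner of several of the 46, is given here although it lies outside the rule for naming genes and was chosen after its values were seen. It had 1458, 1345 and 634 CPM in colon GFP cells, 546 and 350.4 CPM in KO crypts and 741 and 762 CPM in WT crypts, with overlap between colon GFP and WT and none between colon KO and WT.

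For the coats, 12 of 30 further COPII, ERGIC and p24 genes rose and 2 fell in colon GFP cells, and 10 rose and 2 fell in ileum GFP cells, with medians of 0.40 and 0.11. Those called in either direction were 46.7 and 40% of the list, no more than near the share of all genes, and those that rose were 40 and 33.3%. Tmed6, a p24 protein, rose by 2.47 ± 0.52 and 1.83 ± 0.41. Sec23a, the paralogue of Sec23b, had 41.1, 31.3 and 35.5 CPM in colon GFP cells, against 99.8 and 74.2 CPM in colon WT crypts. It fell in both tissues, with -1.27 ± 0.18 in colon and -1.52 ± 0.18 in ileum, where Sec23b was not called (0.15 ± 0.20 and 0.26 ± 0.20). Lman2, a lectin related to Lman1, fell as well, with -0.66 ± 0.19 and -1.24 ± 0.19. Of the 13 COPI genes, whose coat brings KDEL receptors back to the ER, 8 rose and 2 fell in colon GFP cells and 7 rose and 2 fell in ileum GFP cells, with a median of 0.65 in each. Copz2, a coat subunit, had 55.98, 61.96 and 71.4 CPM in colon GFP cells, 1.08 and 1.48 CPM in KO crypts and 5.81 and 8.35 CPM in WT crypts. It rose in GFP cells, with 3.15 ± 0.29 and 2.38 ± 0.29, and fell in the averaged KO effect, with -3.65 ± 0.33 (edgeR adjusted p = 0.00465), and is also on the list of Paneth markers used below. Arfgap2, which triggers uncoating, fell in GFP cells, with -2.53 ± 0.25 and -2.35 ± 0.25.

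RNA of other cell types moved with the groups, and its part in the results above was not tested. Plasma cells also carry an extensive ER, and their 11 matched markers summed to 62.2, 68.3 and 88.9 CPM in colon GFP cells, 363 and 295 CPM in colon KO crypts and 352 and 222 CPM in colon WT crypts. In ileum they summed to 30.5, 30.98 and 35.9 CPM in GFP cells, 289.5 and 332 CPM in KO crypts and 862 and 145 CPM in WT crypts. Most of the sum in GFP cells was Sdc1, with 59.3, 61.7 and 84.8 CPM in colon and 23.5, 23.4 and 22.4 CPM in ileum, and the next highest was Pou2af1, with at most 5.58 CPM. Of the other markers in GFP cells, Jchain was at most 0.143 CPM, Mzb1 at most 0.171 CPM and Tnfrsf17 at 0. None of the 10 plasma cell markers tested was called in KO crypts by edgeR, and 0 reached an unadjusted p under 0.05 in either tissue. Their median log2 fold change was -0.41 in colon KO crypts and -1.31 in ileum KO crypts. Jchain alone had 37.9 and 27.2 CPM in ileum KO 1 and 2, against 203 and 2.75 CPM in ileum WT 1 and 2. Of the goblet markers, 2 of 10 fell in colon KO crypts and 5 of 10 in ileum KO crypts by edgeR, where 0.153 and 1.22% of all genes were called. DESeq2 called 7 and 10 of them lower, and all 10 fell in the averaged KO effect by edgeR. Both KO libraries lay below both WT libraries for all 10 in each tissue. They summed to 75250, 69920 and 73210 CPM in colon GFP cells, 1939 and 2096 CPM in KO crypts and 10580 and 22380 CPM in WT crypts. In ileum they summed to 47750, 135400 and 118800 CPM in GFP cells, 584 and 233 CPM in KO crypts and 11350 and 15610 CPM in WT crypts, and ileum GFP 1 was the lowest sorted library there as it was for the machinery. Paneth markers summed to 59870, 84150 and 70200 CPM in ileum GFP cells, 1698 and 1063 CPM in KO crypts and 10320 and 32430 CPM in WT crypts, with 4 of 10 lower in ileum KO crypts by edgeR and 10 of 10 by DESeq2.

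Of 12 stromal markers tested, 7 fell in colon GFP cells and 11 in ileum GFP cells, with summed levels of 5.11 to 15.8 CPM in GFP libraries, against 46.7 to 157 CPM in WT libraries. Of 15 other immune markers, 8 fell in colon GFP cells, and 11 fell and 1 rose in ileum GFP cells. No stromal or immune marker was called in KO crypts of either tissue alone by edgeR or DESeq2, and 0 of them had an unadjusted p under 0.05 there. In the averaged KO effect edgeR called none of them and DESeq2 called 1 immune marker lower. The 15 immune markers all had a negative log2 fold change in colon KO crypts, with a median of -0.88, and summed to 62.6 and 93.4 CPM in colon KO crypts, against 141 and 149.7 CPM in colon WT crypts, without overlap. In ileum their sum was 155 and 122 CPM in KO crypts, against 276 and 57.4 CPM in WT crypts, which overlapped. Of 10 epithelial markers 6 fell in GFP cells of each tissue and 1 rose in ileum, with medians of -1.08 in colon and -1.16 in ileum. None of the 10 was called in KO crypts by edgeR, with 0 and 4 at an unadjusted p under 0.05 in colon and ileum, and DESeq2 called 1 lower in ileum. By edgeR, enteroendocrine markers fell in 6 of 10 cases in ileum KO crypts and in none of 10 in colon KO crypts, where 6 had an unadjusted p under 0.05. In colon GFP cells 7 of these 10 fell and 1 rose, with a median of -2.06. In ileum GFP cells 8 fell and 1 rose, with a median of -2.05. Of 4 tuft markers tested, 0 were called in colon GFP cells and 3 fell in ileum GFP cells. Over all genes, 23.6% were called lower in colon GFP cells and 28.2% in ileum GFP cells. No tuft or absorptive marker was called in KO crypts by edgeR, with 0 and 1 in colon and 4 and 2 in ileum at an unadjusted p under 0.05. DESeq2 called all 4 tuft markers tested lower and 2 absorptive markers higher in ileum KO crypts, where it called 508 of 23114 genes. It called none of either list in colon KO crypts, and 3 tuft markers lower and 2 absorptive markers higher in the averaged KO effect. Of the enteroendocrine markers, DESeq2 called 2 lower in colon and 8 lower in ileum. Tuft markers summed to 16.6 and 240.3 CPM in ileum WT 1 and 2. Without both WT 2 libraries, which hold more goblet and Paneth RNA than the WT 1 libraries, 1 WT library was left per tissue. The median log2 fold change of the 46 genes was then -0.26 in the averaged KO effect. For GFP over WT it was 0.78 in colon and 0.81 in ileum.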

How the data were processed

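RNA-seq gene counts were analysed for 14 libraries of mouse colon and ileum in 6 groups, assigned from the labels. The submitters' processing notes name TopHat 1.4.1, HTSeq and the mouse build mm9. The tables hold whole-number counts as the authors deposited them, with no normalization. No source used here gives the HTSeq version, annotation release, strand setting or how the Cre was induced. The closing lines of each table, which name no gene (reads outside genes, ambiguous reads and alignments to several sites), held 42.36 to 68.55% of all lines counted and stayed out of library sizes and tests. Alignments to several sites, 29.25 to 42.98% of the same total, were not counted, which lowers genes that share sequence with copies.

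Symbols, exon lengths and exon overlaps came from GENCODE M21, promoter windows from RefSeq on GRCm38.p6. Of 36536 gene IDs 31004 got a symbol. edgeR 4.0.16 in R 4.3.3 was run with TMM scaling, its default low-count filter by group, and robust quasi-likelihood fits with 1 mean per group. KO and WT crypts were fitted on their 8 libraries (14415 genes, biological coefficient of variation 0.202) and comparisons with GFP cells on all 14 (15274 genes, 0.232). A gene was called at a Benjamini-Hochberg adjusted p under 0.05 over all genes tested. Each group holds 2 or 3 libraries. No replicates held identical counts.

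The 46 genes, the wider lists and the marker lists were chosen with earlier results of these data known. Of 216 list entries 211 were matched. Values per library, for some genes in 1 tissue or in some groups only, are given for genes called in KO crypts, up to 8 genes with the largest called change per direction in GFP cells, up to 3 per direction between tissues, and the gene with the highest CPM per kb of each role. Further genes shown with values per library (Srp68, Sec11a, Stt3a, Hsp90b1, Sdf2l1, Manf, Sec31a and Kdelr1) were added after their values were seen. Alternatives were DESeq2 1.42.0 (Wald test, or its size factors in edgeR), no filter, no genes above 1% of counts, other sets of libraries, library totals in place of TMM, the replicate number as a block, and leaving out each library.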

Additional observations from a re-analysis of the deposited data

Results flagged for a closer look

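In the sorted library ileum GFP 1, 52.29% of uniquely placed reads lay outside annotated genes, a part of the data that no comparison here uses, against 9.3 to 13.25% in the crypt libraries and 24.87 to 31.92% in the other sorted libraries.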

How the results depend on the processing

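Counts of the 46 genes called changed with the processing as follows, and the cause was not tested. DESeq2 called 5 in colon KO crypts (0 by edgeR), 18 in the averaged KO effect (3), 1 for the difference of the GFP effect between tissues (0) and 5 for colon against ileum GFP cells (2). In the last of these DESeq2 called 3788 of 28699 genes and edgeR 3471 of 15274. A fit on all 14 libraries gave 1 in colon KO, 1 in ileum KO (3), 1 for colon against ileum WT (12) and 8 for colon against ileum KO (23). In that fit 73, 265, 1836 and 2395 of 15274 genes were called, against 22, 176, 2872 and 3699 of 14415 in the main fit. A fit on only the 2 groups compared gave 3 in colon KO, 0 in ileum KO, 3 for the WT tissues and 0 for the GFP tissues. Of all genes, 102 of 13801, 4 of 13408, 1213 of 13946 and 2147 of 12885 were called in these fits. Without a filter on low counts the averaged KO effect had 12 and the GFP tissues 3, where 467 of 23114 and 3861 of 28699 genes were called. Without genes above 1% of counts the GFP tissues had 1, where 3449 of 15274 genes were called. Without both WT 2 libraries, chosen after seeing the data, 1 WT library was left per tissue. The members' median log2 fold change was then -0.33 in colon KO, -0.19 in ileum KO, -0.28 for the WT tissues, 0.78 for colon GFP and 0.81 for ileum GFP. For the GFP tissues the count of calls was 0, where 3102 of 16407 genes were called.

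Leaving out each library in turn gave 0 to 10 calls for ileum KO, 0 to 18 for the averaged KO effect, 0 to 1 for the difference of the KO effect, 1 to 13 for the WT tissues, 4 to 19 for the KO tissues, 16 to 31 for colon GFP, 17 to 39 for ileum GFP and 0 to 18 for the GFP tissues, and 0 in each case for colon KO. The members' median log2 fold change moved by less than 0.22 under all of these. That value is the SD of the library medians pooled over the 6 groups, GFP groups included, and is not small beside the KO effects. The ileum KO median, -0.27 in the main fit, ran from -0.38 to -0.14, and the colon KO median, -0.35, from -0.44 to -0.26. Among genes called under at least 1 setting of a comparison, uncalled values changed sign for Spcs1 between the WT tissues (-0.4 to 0.07 over the libraries left out, 0.05 without both WT 2 libraries). In colon GFP cells they did for Manf (-0.27 to 0.06 over the libraries left out), Sec13 (-0.03 to 0.02, 0.01 with DESeq2 size factors and 0.01 without genes above 1% of counts), Srp68 (-0.13 to 0.04) and Tmed2 (-0.12 to 0.31, -0.02 without both WT 2 libraries). In ileum GFP cells they did for Canx (-0.21 to 0.08 over the libraries left out), Manf (-0.29 to 0.22, 0.13 without both WT 2 libraries), Mcfd2 (-0.03 to 0.49) and Srp68 (-0.21 to 0.16). Of 258 values of members called under no setting of a comparison, 101 changed sign under at least 1 alternative, among them Sec11a in ileum KO (-0.1 to 0.11) and Stt3b in colon KO (-0.03 to 0.04).

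Library totals in place of TMM, also chosen after seeing the data, were run for the comparisons with GFP cells. With totals over all genes the count of calls was 16 in colon GFP (29), and the members' median was -0.15 in colon and -0.04 in ileum, where the median of all genes was -0.93 and -0.85. The log2 fold changes that changed sign were, in colon, Canx -0.58, Creld2 -0.08, Ddost -0.47, Dnajb11 -0.18, Dnajc3 -0.25, Mcfd2 -0.12, Rpn1 -0.24, Rpn2 -0.43, Sar1b -0.05, Sec11a -0.17, Sec11c -0.14, Sec23b -0.78, Sec24d -0.53, Sec31a -0.03, Sec61a1 -0.37, Sec62 -0.58, Sec63 -0.40, Spcs2 -0.07, Spcs3 -0.11, Srp72 -0.16, Ssr1 -0.50, Stt3a -0.31, Tmed10 -0.07 and Tmed2 -0.78, and in ileum, Ddost -0.61, Dnajb11 -0.22, Hyou1 -0.44, Mcfd2 -0.64, Rpn1 -0.38, Rpn2 -0.51, Sar1b -0.67, Sec11a -0.02, Sec23b -0.56, Sec24d -0.42, Sec61a1 -0.62, Sec62 -0.27, Sec63 -0.19, Spcs2 -0.07, Ssr1 -0.27, Stt3a -0.08 and Tmed2 -0.63. With totals that leave out mitochondrial ribosomal RNA the ileum median was 0.52, 1 gene was called between the GFP tissues, and the values that changed sign were Sec23b -0.04 and Tmed2 -0.04 in colon and Ddost -0.05, Mcfd2 -0.08, Sar1b -0.10, Sec61a1 -0.06 and Tmed2 -0.06 in ileum.

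Replicate numbers were not taken as pairs: same-numbered KO and WT libraries had deviations correlated at -0.0142 in colon and 0.0467 in ileum, GFP and WT at -0.0634 to 0.0746, and colon and ileum at 0.315 in WT and 0.359 in KO, with only 2 numbers. With the replicate block 5 genes were called in the averaged KO effect, 0 in colon KO, 3 in ileum KO, 24 in colon GFP and 27 in ileum GFP. A block within genotype gave 18 for the WT tissues and 27 for the KO tissues.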
